A study of Mus musculus with 144 samples.

Results

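Cyp2a4, Cyp2a5, Cyp2a12 and Cyp2a22 encode the CYP2A cytochrome P450 enzymes measured here, 4 of the 24421 gene symbols in the deposited tables. They were picked by symbol, and each has 1 transcript row per table. The choice was made with the knockout against control difference of Cyp2a4 and Cyp2a5 in liver already known. That difference is therefore given below as values with errors and without a test, and it supports nothing. Tests are kept for daily rhythms, for rhythm differences between feeding schedules and for isolated cells, on which the choice was not made. They were chosen with earlier results of these data known. The rhythm tests use the same liver libraries, and the isolated-cell libraries held transcripts of hepatocyte markers. None of these tests is therefore separate evidence for the liver difference.

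The animals were male C57BL/6J mice fed normal chow. Controls were labelled WT, and the other genotype was a knockout of REV-ERBα and REV-ERBβ together in hepatocytes, the main epithelial cells of the liver, induced in adult animals. The groups used were whole liver under ad libitum feeding, whole liver under reverse-phase feeding, and endothelial and Kupffer cells isolated from liver, each from both genotypes. Liver was sampled at ZT (zeitgeber time, in hours from the onset of light) 1, 4, 7, 10, 13, 16, 19 and 22 and isolated cells at ZT 4, 10, 16 and 22, with 3 libraries in each of 48 groups and 144 in all. The series title names the question, how the hepatocyte clock and feeding together set the daily programme of liver cell types. Age is not given in the sources used here. In the deposited columns controls carry the name GFP and knockouts CRE, so the material delivered differed with the genotype and the pair cannot be told apart. No label says that each library is from a mouse of its own, and p-values measure the spread between libraries.

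CYP2A enzymes are membrane-bound monooxygenases of the hepatocyte endoplasmic reticulum that oxidise steroids, coumarin, nicotine and other small foreign molecules, using electrons passed on by P450 oxidoreductase and cytochrome b5. Cyp2a5 is the mouse coumarin hydroxylase and the counterpart of the main human nicotine-oxidising enzyme, and its liver transcript is known to cycle over the day under the clock output factor DBP. Cyp2a4 is a steroid hydroxylase whose liver transcript is known as female-biased and dependent on the growth hormone pattern. Cyp2a12 is a testosterone hydroxylase of mouse liver, and little is known of Cyp2a22. REV-ERBα and REV-ERBβ are heme-binding repressors within the clock loop.

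The promoters are shown because the family falls into pairs of near-identical genes, and the letters marked in the promoters of Cyp2a4 and Cyp2a5 are absent from those of Cyp2a12 and Cyp2a22. Each runs from 250 bases before to 50 bases after the start of transcription, 5′ to 3′ on the gene's own strand, from RefSeq on GRCm38.p6, with all 4 members matched by symbol. Cyp2a4 is at chr7:26306942-26307241 (+), Cyp2a5 at chr7:26835089-26835388 (+), Cyp2a12 at chr7:27028840-27029139 (+) and Cyp2a22 at chr7:26939337-26939636 (-). Capitals mark TTGCATAA, a variant of the site that DBP and its relatives bind, and TGACCT, the reverse complement of the nuclear receptor core AGGTCA.
Cyp2a4: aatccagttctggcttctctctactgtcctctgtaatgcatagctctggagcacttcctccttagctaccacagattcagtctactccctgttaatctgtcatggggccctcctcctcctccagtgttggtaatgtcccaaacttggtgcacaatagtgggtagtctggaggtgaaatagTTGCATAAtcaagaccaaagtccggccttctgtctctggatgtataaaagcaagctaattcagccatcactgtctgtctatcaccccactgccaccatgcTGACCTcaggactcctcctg
Cyp2a5: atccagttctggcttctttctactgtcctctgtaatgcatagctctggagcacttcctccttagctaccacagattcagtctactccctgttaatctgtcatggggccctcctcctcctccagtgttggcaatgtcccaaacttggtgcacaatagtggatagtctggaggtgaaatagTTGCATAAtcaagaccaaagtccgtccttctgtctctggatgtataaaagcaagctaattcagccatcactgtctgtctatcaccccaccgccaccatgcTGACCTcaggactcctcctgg
Cyp2a12: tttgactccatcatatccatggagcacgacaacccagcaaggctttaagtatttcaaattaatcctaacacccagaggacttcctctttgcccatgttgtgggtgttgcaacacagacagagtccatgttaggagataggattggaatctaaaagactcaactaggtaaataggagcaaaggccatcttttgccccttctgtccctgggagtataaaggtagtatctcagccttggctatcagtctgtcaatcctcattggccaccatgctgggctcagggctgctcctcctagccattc
Cyp2a22: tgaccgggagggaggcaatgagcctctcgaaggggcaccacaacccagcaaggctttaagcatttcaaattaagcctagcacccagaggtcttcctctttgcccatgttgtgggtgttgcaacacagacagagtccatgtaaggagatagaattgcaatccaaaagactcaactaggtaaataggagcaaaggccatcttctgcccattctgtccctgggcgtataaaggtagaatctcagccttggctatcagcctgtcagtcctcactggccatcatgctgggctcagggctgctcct
Of 299 aligned promoter bases, 294 were identical between Cyp2a4 and Cyp2a5, and between Cyp2a12 and Cyp2a22 it was 258 of 289. TTGCATAA lay 70 to 63 bases before the start in Cyp2a4 and 71 to 64 bases before it in Cyp2a5, and these letters were added to the search after the promoters had been read. On either strand 0.743% of the 32851 promoters of this length hold them. AGGTCA, which 16.3% of promoters hold, was found in both genes after the start, at bases 30 to 35 in Cyp2a4 and 29 to 34 in Cyp2a5. There its reverse complement directly follows the letters atgc. If translation starts at that atg, the match lies in coding sequence. Neither set of letters was in the Cyp2a12 or Cyp2a22 window. The D-box letters TTATGTAA or TTACGTAA, held by 1.06% of promoters, and the E-box CACGTG, held by 7.15%, were in none of the 4 windows. The motifs do not overlap each other, and a match of letters is not a measured binding site.

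On mm9, the build of the deposited tables, all 4 genes lie on chromosome 7 within 730 kb that hold 11 gene symbols. Cyp2a4 (NM_009997) spans 27092211 to 27100107 and Cyp2a5 (NM_007812) 27620358 to 27628283, both on the plus strand. Cyp2a22 (NM_001101467) spans 27716650 to 27724405 on the minus strand, and Cyp2a12 (NM_133657) 27814109 to 27821834 on the plus strand. The coding sequences of Cyp2a4 and Cyp2a5 were 98.5% identical, with 23 differences in 1485 bases and a longest identical run of 216. Of all windows of 50 bases in the Cyp2a4 coding sequence, 38.1% occur unchanged in Cyp2a5, and reads from such stretches can be counted for either gene. Cyp2a12 and Cyp2a22 were 97.0% identical with 45 differences, and identity across the pairs was 75.3% to 76.4%. The level of the rarer gene of each pair is therefore uncertain, and how the authors placed shared reads is not given in the sources used here.

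Library totals were 4.57e6 to 10.4e6 counts in ad libitum liver and 13.1e6 to 26.2e6 in reverse-phase liver, while the depth of the isolated-cell tables is unknown. The targeted genes did not fall in whole liver: the daily mean of Nr1d1, which encodes REV-ERBα, was higher in the libraries labelled knockout by 1.76 ± 0.15 on the log2 scale (SE) with free access to food and 1.83 ± 0.15 with reversed feeding. For Nr1d2, which encodes REV-ERBβ, these differences were 1.11 ± 0.10 and 0.80 ± 0.08. Counts over a whole transcript do not show whether a part of it is deleted, and which part was deleted is not given in the sources used here. Xist stayed at or below 2.59 in every library and Ddx3y at or above 26.9, as for male animals. All 10 hepatocyte markers were above 0 in every library, at 9.15% to 17.8% of all liver values and 0.137% to 3.33% of those of isolated cells.

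Cyp2a5 had the highest daily mean of the members in liver, though Cyp2a12 exceeded it in ad libitum controls at ZT 1, 4 and 22, and it was higher in knockout than in control libraries at each of the 8 times under both schedules. In ad libitum controls its CPM (counts scaled to a common library size, with TMM factors) was 292 at the lowest, 1119 at the median and 3163 at the highest of 24 libraries. In ad libitum knockouts it was 1952, 4057 and 8502. Under reverse-phase feeding controls ran from 722 through a median of 1545 to 3227 CPM, and knockouts from 4372 through 5508 to 7048. The fitted daily mean was higher in knockouts by 1.92 ± 0.12 on the log2 scale (SE, n = 24 against 24), or 3.80-fold, ad libitum. Under reverse-phase feeding the difference was 1.70 ± 0.10, or 3.24-fold. No knockout library overlapped a control of its own time for Cyp2a5 or Cyp2a4 at any time, a pattern met by 0.399% of the 12534 genes tested ad libitum and 0.55% of the 13810 under reverse-phase feeding. An adjusted p under 0.05 for this contrast was reached by 27.2% and 26.9% of genes, and nothing is read from these shares. These are the values that led to the choice of the genes, and the counts of whole liver cannot tell more transcript per cell from more cells of a kind.

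Time of day moved Cyp2a5 strongly in controls. Ad libitum, the 3 control libraries at ZT 1 had 349.9, 469 and 447 CPM, and those at ZT 16 had 1813, 3163 and 2565. All libraries at the later time were thus above all at the earlier one. The fitted curve peaked at ZT 13 ± 0.4 h (SE) with a peak-to-trough range of 5.72-fold, or 2.52 ± 0.24 on the log2 scale (edgeR quasi-likelihood test of the 24-h terms, adjusted p = 5.4e-11). Knockout liver cycled over a smaller log range, 1.14 ± 0.22 or 2.20-fold, with a fitted peak at ZT 11.6 ± 0.8 h (edgeR, adjusted p = 0.00027). In knockouts ZT 1 gave 1952, 2991 and 3028 CPM and ZT 10 gave 7369, 6635 and 5452. The groups at the extremes did not overlap in either genotype. These times were picked for their lowest and highest means, so the separation adds nothing to the rhythm tests.

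The Cyp2a5 rhythm differed between genotypes on the log scale (edgeR, adjusted p = 0.0078), a test that 3.31% of genes passed. Tests of a rhythm difference take peak time and range together, so no p-value is for range alone. The knockout range was lower by 1.38 log2 units. The call was lost when time was fitted as a factor with 8 levels (adjusted p = 0.109). It also ended when the libraries of any 1 replicate number were left out together (adjusted p = 0.0638 to 0.159). None of the 48 fits that left out 1 library lost it. In CPM the order was the opposite, as time means show. They ran from 422 at ZT 1 to 2513 at ZT 16 in controls, a swing of 2091 CPM, and from 2657 at ZT 1 to 6486 at ZT 10 in knockouts, a swing of 3828 CPM. The fitted log range was thus smaller and the CPM swing of time means larger in the ad libitum knockouts. The swing has no error and was not tested, and noise in the time means adds to it.

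**Figure D1:**
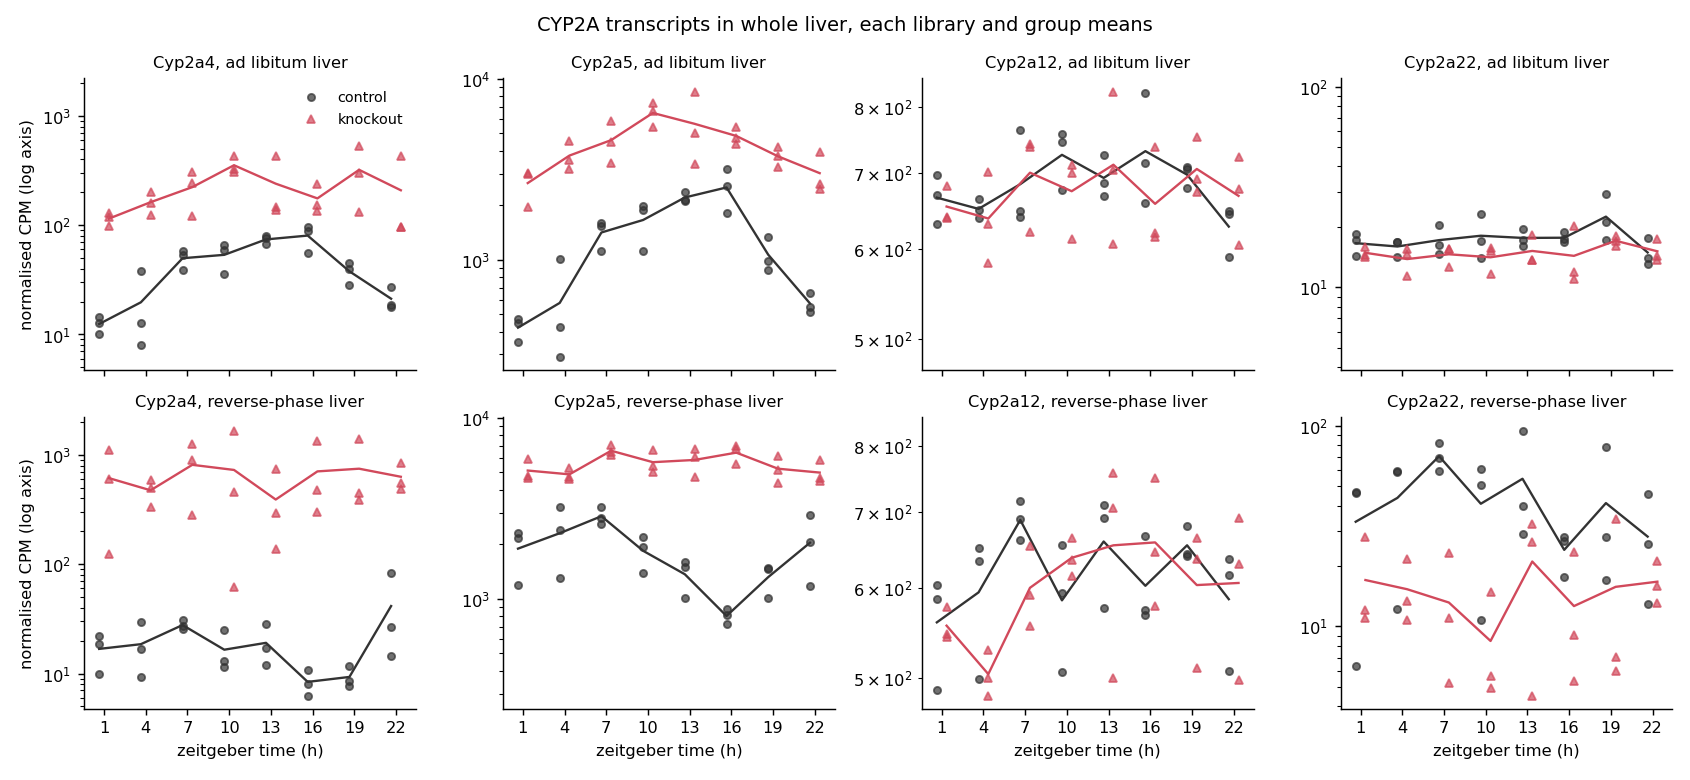
Normalised CPM (log axis) of the 4 genes against zeitgeber time in ad libitum liver (top) and reverse-phase liver (bottom), with 1 point per library and lines through the group means of 3 control (circles) or knockout (triangles) libraries. Knockout points of Cyp2a4 and Cyp2a5 lie above the control points of their time in all panels, whereas those of Cyp2a12 overlap with the controls at all times but ZT 7 under reverse-phase feeding.

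Under reverse-phase feeding the control rhythm of Cyp2a5 had an earlier fitted peak and a smaller fitted range than ad libitum. Control libraries under reverse-phase feeding had 815, 722 and 877 CPM at ZT 16, where ad libitum controls were highest, and 3227, 2581 and 2782 at ZT 7. Their fitted peak was at ZT 4.4 ± 0.6 h with a range of 1.32 ± 0.20 log2 units, or 2.49-fold (edgeR, adjusted p = 7.7e-06). In the joint fit of all 96 liver libraries the control rhythms of the schedules differed, with the peak 8.47 h earlier and the range 1.22 log2 units lower under reverse-phase feeding (edgeR, adjusted p = 2.0e-15). Such differences were common: 53.6% of 13535 genes passed this test in controls. The schedules were deposited as separate tables, and other differences between the tables cannot be told apart from feeding in this test.

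In reverse-phase knockouts no 24-h rhythm of Cyp2a5 was detected. Libraries at ZT 4 had 4594, 5307 and 4734 CPM and those at ZT 7 had 6275, 7048 and 6447, the lowest and highest of the time means. The fitted range was 0.32 ± 0.20 log2 units (edgeR, adjusted p = 0.385), a difference of -0.99 log2 units from the control range. The rhythms of the genotypes differed in the test of peak time and range together (edgeR, adjusted p = 0.0045), which 1.48% of genes passed. That call held in each of 48 fits without 1 library and ended when replicate number 1 or 3 was left out (adjusted p = 0.317 and 0.0927). Here the CPM swing of time means was also smaller in knockouts, 1712 against 2059. The knockout rhythms of the schedules did not pass the test of their difference, at -0.79 log2 units in range (edgeR, adjusted p = 0.071; 49.0% of genes passed).

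Cyp2a4 was far rarer than Cyp2a5 in controls, and its knockout libraries varied widely. In ad libitum controls it had 8.08 CPM at the lowest, 39.3 at the median and 97.3 at the highest of 24 libraries, and in knockouts 96.9, 157 and 531. Under reverse-phase feeding controls ran from 6.29 through 15.6 to 82.9 CPM and knockouts from 61.4 through 495 to 1667. At ZT 10 alone, the 3 reverse-phase knockout libraries had 61.4, 459 and 1667 CPM. The spread around the time means was 1.31 log2 units (SD) there, against 0.66 in reverse-phase controls and 0.20 for Cyp2a5 in the same knockout libraries.

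The fitted daily mean of Cyp2a4 was higher in knockouts by 2.57 ± 0.20 log2 units (SE), or 5.94-fold, ad libitum. Under reverse-phase feeding the difference was 5.06 ± 0.34, or 33.4-fold. The difference between these effects was 2.49 ± 0.36 log2 units, while for Cyp2a5 it was -0.22 ± 0.15, and 0.207% of genes passed the test of that difference. With Cyp2a4 and Cyp2a5 summed into 1 row the reverse-phase effect was 1.84 log2 units and the difference between schedules -0.11, where most counts are those of Cyp2a5. None of these contrasts was tested, as the choice of the genes used them.

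In ad libitum controls Cyp2a4 followed Cyp2a5 closely. Its curve peaked at the same hour, ZT 13 ± 0.7 h, over a range of 2.45 ± 0.42 log2 units (edgeR, adjusted p = 3.5e-05). Across the 24 control libraries the log2 values of Cyp2a4 and Cyp2a5 had a Pearson r of 0.990 (permutation p = 1e-05, the smallest 100000 permutations can give; adjusted p = 0.00012 over 24 relations among the members). Spearman's rho was 0.988 (permutation p = 1e-05, adjusted p = 0.00012), r without the 2 libraries farthest from the median Cyp2a4 level was 0.987, and r after removing the time means was 0.969. In ad libitum knockouts r was 0.654 (permutation p = 0.00068, adjusted p = 0.0033; rho 0.720, permutation p = 0.00015, adjusted p = 0.0009; r without 2 libraries 0.653). In reverse-phase controls r was 0.589 (permutation p = 0.0022, adjusted p = 0.0089; rho 0.730, permutation p = 0.0001, adjusted p = 0.0008), 0.830 without 2 libraries and 0.270 after removing the time means. In reverse-phase knockouts r was 0.239 (permutation p = 0.26, adjusted p = 0.34; rho 0.107, permutation p = 0.62, adjusted p = 0.70; r without 2 libraries 0.102).

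The count of Cyp2a4 as a share of that of Cyp2a5 in the same library shows where the genes part. It was 2.77% to 4.17% in every ad libitum control, with a median of 3.30%, although Cyp2a5 itself moved from 292 to 3163 CPM. Ad libitum knockouts ran from 2.85% through a median of 4.22% to 12.7%. Under reverse-phase feeding 23 controls lay between 0.525% and 1.77% and 1, at ZT 22 with number 2, at 7.05%. Reverse-phase knockouts ran from 1.23% through a median of 10.03% to 32.3%. Reads that the genes share can be counted for either, and their part in these shares was not tested.

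**Figure D2:**
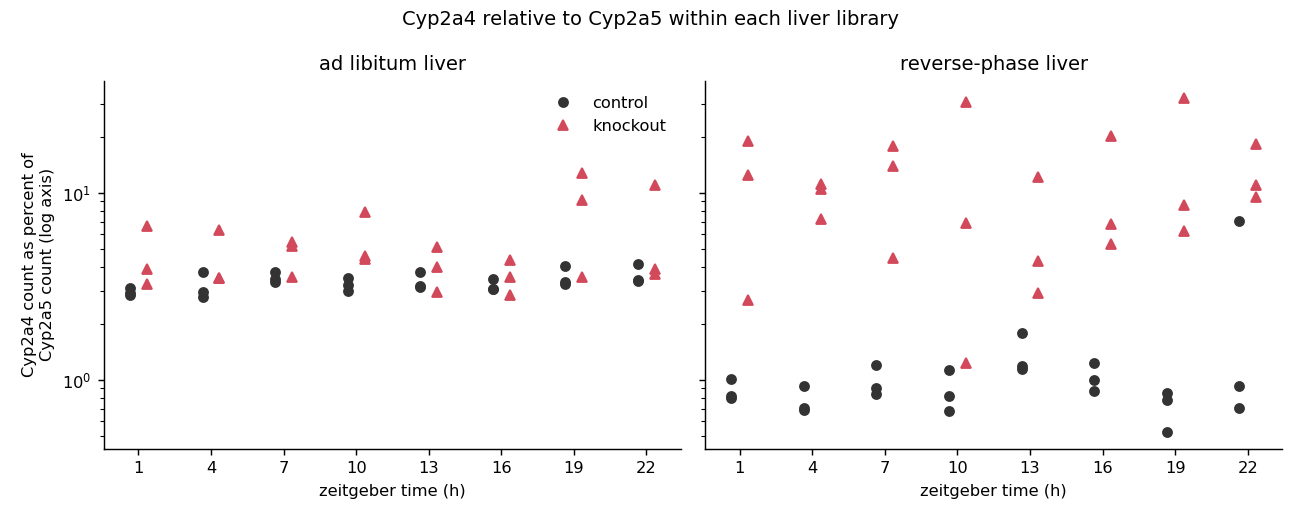
Cyp2a4 count as a percentage of the Cyp2a5 count (log axis) in each liver library by zeitgeber time, with controls as circles and knockouts as triangles. Ad libitum controls form a narrow band from 2.77% to 4.17%, and reverse-phase knockouts reach 32.3%.

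No other rhythm of Cyp2a4 passed its test. The range was 0.89 ± 0.40 log2 units in ad libitum knockouts (edgeR, adjusted p = 0.16), 1.04 ± 0.64 in reverse-phase controls (adjusted p = 0.38) and 0.04 ± 0.55 in reverse-phase knockouts (adjusted p = 0.999). Without the reverse-phase control at ZT 22 with number 2, which stood apart at 82.9 CPM beside 14.5 and 26.9, the control range was 1.15 log2 units (adjusted p = 0.215). Leaving out the ad libitum knockout at ZT 22 with number 2, at 432 CPM beside 97.0 and 96.9, brought the ad libitum knockout rhythm past the threshold (range 1.20 log2 units, edgeR, adjusted p = 0.030). The control rhythms of the schedules differed for Cyp2a4 as for Cyp2a5 in the test of peak time and range together (edgeR, adjusted p = 0.00049). Under reverse-phase feeding the range was 1.46 log2 units lower and the fitted peak moved by -10.0 h. The reverse-phase peak of Cyp2a4 is uncertain, as no rhythm was called there. Its rhythm difference between genotypes did not pass ad libitum (-1.56 log2 units, adjusted p = 0.29) or under reverse-phase feeding (-1.0, adjusted p = 0.93).

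Cyp2a12 differed little between genotypes, times or schedules. Ad libitum controls had 591 CPM at the lowest, 673 at the median and 823 at the highest, and knockouts 583, 679.7 and 826. Under reverse-phase feeding controls ran from 488 through 636 to 716 CPM and knockouts from 482 through 603 to 757. The genotypes overlapped at all times but ZT 7 under reverse-phase feeding, where the controls lay between 661 and 716 CPM and the knockouts between 555 and 654. The fitted daily means differed by -0.02 ± 0.03 and -0.04 ± 0.05 log2 units (SE). A rhythm was called in reverse-phase knockouts, 0.30 ± 0.10 log2 units or 1.23-fold with a peak at ZT 14.5 ± 1.3 h (edgeR, adjusted p = 0.041). It sat at the threshold: 12 of the 48 fits without 1 library lost it, each without a different knockout library (adjusted p = 0.0513 to 0.102), as did the fits without replicate number 1 or 3 (adjusted p up to 0.336) and the fit with time as a factor (adjusted p = 0.25). Those libraries were numbers 1 and 2 at ZT 1, all 3 at ZT 4, number 3 at ZT 10, numbers 1 and 3 at ZT 13, numbers 2 and 3 at ZT 16, number 2 at ZT 19 and number 3 at ZT 22.

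Cyp2a22 was rare ad libitum and variable under reverse-phase feeding. Ad libitum controls had 13.1 CPM at the lowest, 17.1 at the median and 29.0 at the highest, and knockouts 10.96, 14.9 and 20.2. Under reverse-phase feeding controls ran from 6.33 through 42.7 to 94.3 CPM and knockouts from 4.53 through 12.6 to 34.2. The groups overlapped under both schedules. Its fitted daily mean was lower in knockouts by 0.24 ± 0.07 log2 units (SE) ad libitum, and by 1.45 ± 0.27 with the reversed schedule. Cyp2a22 thus went the other way from Cyp2a4 where that gene rose furthest. At ZT 7 the reverse-phase controls had 82.4, 59.6 and 69.2 CPM and the knockouts 5.25, 10.96 and 23.3, the only time under that schedule at which all knockouts lay below all controls. No rhythm of Cyp2a22 passed its test in any of the 4 liver sets (edgeR, adjusted p = 0.25 to 0.84).

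The log2 values of Cyp2a22 and its near-identical partner were correlated across libraries in all 4 liver sets. In ad libitum knockouts Cyp2a12 and Cyp2a22 had a Pearson r of 0.826 (permutation p = 1e-05, adjusted p = 0.00012; rho 0.819, permutation p = 1e-05, adjusted p = 0.00012; r without 2 libraries 0.791). In reverse-phase controls r was 0.774 (permutation p = 4e-05, adjusted p = 0.00032; rho 0.688, permutation p = 0.0003, adjusted p = 0.0014; r without 2 libraries 0.664). In ad libitum controls r was 0.514 (permutation p = 0.011, adjusted p = 0.028; rho 0.610, permutation p = 0.0019, adjusted p = 0.0063; r without 2 libraries 0.640). In reverse-phase knockouts it was 0.474 (permutation p = 0.020, adjusted p = 0.044; rho 0.488, permutation p = 0.017, adjusted p = 0.038; r without 2 libraries 0.446). After removing the time means r was 0.433 in ad libitum controls, 0.861 in ad libitum knockouts, 0.759 in reverse-phase controls and 0.815 in reverse-phase knockouts. This was not particular to the pair: Cyp2a12 and Cyp2a5 had an r after removing the time means of 0.862 in reverse-phase controls and 0.684 in reverse-phase knockouts, but 0.121 and -0.403 in ad libitum controls and knockouts. The Cyp2a22 count was 1.77% to 4.10% of the Cyp2a12 count in ad libitum liver and 0.799% to 13.3% under reverse-phase feeding. The part of shared reads in this was not tested.

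Levels can be compared between genes per kilobase of transcript. In ad libitum controls Cyp2a5 stood at 766 ± 473 CPM per kilobase (SD over 24 libraries), Cyp2a12 at 414 ± 31.1, Cyp2a4 at 25.6 ± 15.5 and Cyp2a22 at 7.93 ± 1.56. There Cyp2a12 lay within 1 SD of Cyp2a5. The order was the same in ad libitum knockouts, with 2549 ± 934 for Cyp2a5, 409 ± 36.5 for Cyp2a12, 132 ± 75.6 for Cyp2a4 and 6.73 ± 1.04 for Cyp2a22. In reverse-phase controls Cyp2a22, at 18.9 ± 11.2, and Cyp2a4, at 11.6 ± 9.17, lay within each other's spread. In reverse-phase knockouts Cyp2a4, at 375 ± 257, lay within the spread of Cyp2a12, at 365 ± 48.9, while Cyp2a5 reached 3287 ± 519. Cyp2a5 alone made up 0.569% of all counts in reverse-phase knockouts, against 0.176% in controls.

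**Figure D3:**
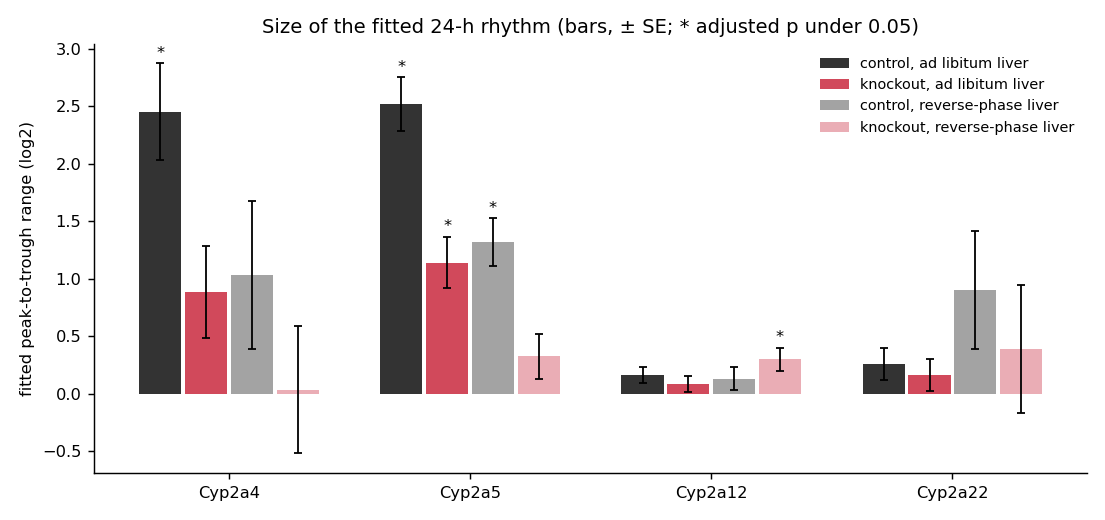
Fitted peak-to-trough range of the 24-h curve (log2) for each gene in control and knockout liver under both schedules, as bars with the SE of the range; stars mark an adjusted p under 0.05. Cyp2a5 carries a starred bar in 3 of its 4 sets, at 2.52, 1.14 and 1.32, and Cyp2a4 in ad libitum controls only.

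The counts of rhythmic members are read against those of all genes. In ad libitum controls 2 of 4 members passed the test, where 48.1% of all genes did, and in ad libitum knockouts 1 of 4 beside 44.1%. Under reverse-phase feeding 1 of 4 passed in controls, beside 41.2%, and 1 of 4 in knockouts, beside 36.8%. All 4 members passed the filter on low counts in both liver tables.

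Endothelial cells line the liver sinusoids and Kupffer cells are the resident macrophages, and neither is known as a main site of CYP2A expression. Cyp2a5 and Cyp2a12 were nevertheless above 0 in all 48 isolated-cell libraries, at levels that varied widely within a group. In endothelial cells the quantile-normalised signal of Cyp2a5 was 18.6 at the lowest, 59.0 at the median and 267 at the highest of 12 controls, and 94.98, 176 and 584 in knockouts. In Kupffer cells it was 8.52, 60.9 and 186 in controls and 62.2, 121 and 446 in knockouts. Cyp2a12 ran from 26.7 to 263 in endothelial controls and from 26.7 to 355 in knockouts. The ranges of the genotypes overlapped for both genes.

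Both genes were correlated with a hepatocyte marker across libraries, with time means not removed. Carry-over of hepatocyte RNA into the isolated cells was not tested. The summed hepatocyte markers were 0.305% to 1.58% of the signal in endothelial controls and 0.229% to 3.33% in endothelial knockouts, and 0.161% to 1.61% and 0.137% to 1.70% in Kupffer cells. All 10 endothelial markers were above 0 in every endothelial library and all 10 Kupffer markers in every Kupffer library, at 1.43% to 2.02% and 2.40% to 2.84% of the signal. Cyp2a12 followed Alb, which encodes serum albumin, with r between 0.934 and 0.976 in the 4 sets of 12 libraries (permutation adjusted p = 5.3e-05 to 6.0e-05; rho 0.875 to 0.963, permutation adjusted p = 8.0e-05 to 0.00094). Without the 2 libraries farthest in Alb r was 0.932 to 0.974. For Cyp2a5 and Alb r was lower, 0.817 to 0.870 (permutation adjusted p = 0.00053 to 0.0036; rho 0.690 to 0.775, permutation adjusted p = 0.0067 to 0.016), and 0.799 to 0.836 without those libraries. Endothelial and Kupffer libraries of the same genotype, time and number also went together in Cyp2a12, with r = 0.936 over 24 pairs (permutation p = 1e-05; rho 0.936, permutation p = 1e-05; r without 2 pairs 0.916). The cell types are therefore not independent of each other.

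The daily mean of Cyp2a5 was higher in knockouts by 1.61 ± 0.38 log2 units (SE) in endothelial cells and 1.51 ± 0.43 in Kupffer cells, and neither passed across all genes (limma, adjusted p = 0.281 and 1.0). Few genes did: 0.0319% of 12523 in endothelial and 0.0244% of 12270 in Kupffer cells. Cyp2a12 differed by -0.05 ± 0.43 and -0.16 ± 0.53 log2 units (limma, adjusted p = 0.996 and 1.0). The ratio of Cyp2a5 to Cyp2a12 within a library divides out any amount of RNA that scales both genes alike, and as this measure was chosen after the data were seen it is given without a test. On the log2 scale it was -0.42 ± 0.61 in endothelial controls and 1.24 ± 0.62 in knockouts (SD, n = 12 each), a difference of 1.66 or 3.16-fold. All 12 endothelial knockouts were above the control mean of their time, and the ranges did not overlap, with the highest control at 0.48 and the lowest knockout at 0.59. In Kupffer cells it was -0.26 ± 0.69 and 1.41 ± 0.65 (SD, n = 12 each), a difference of 1.67, and all 12 knockouts were above the control mean of their time. The Kupffer ranges overlapped, with the highest control at 0.66 and the lowest knockout at 0.48. In ad libitum liver the same ratio differed by 2.11 log2 units at these times, from 0.60 ± 1.03 to 2.71 ± 0.50 (SD, n = 12 each), and in reverse-phase liver by 1.78, from 1.41 ± 0.68 to 3.19 ± 0.16.

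**Figure D4:**
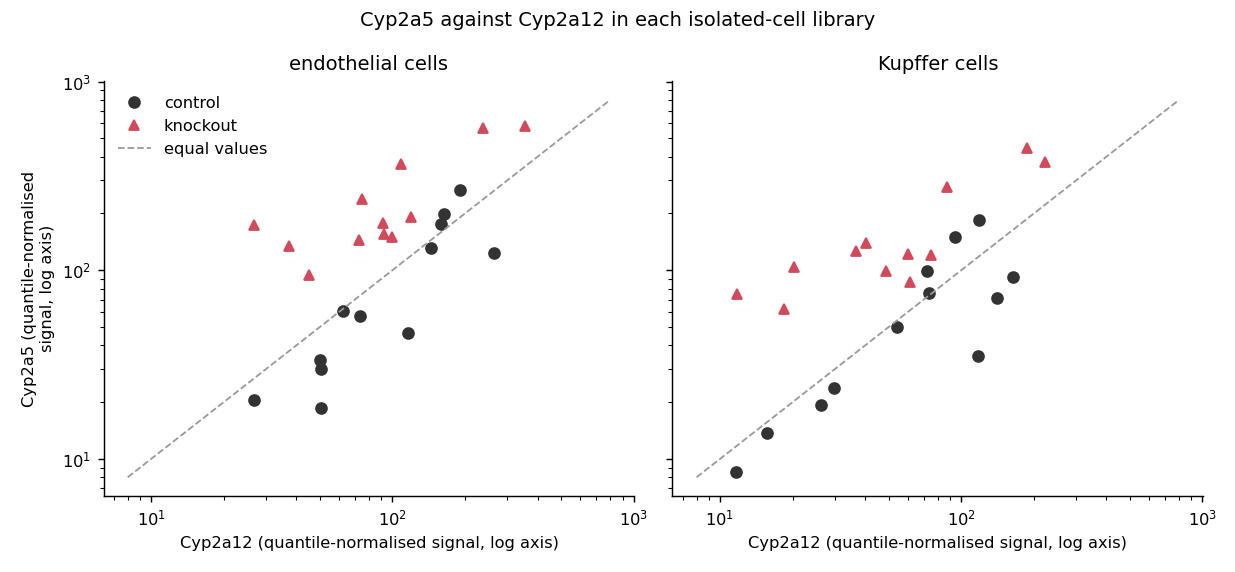
Quantile-normalised signal of Cyp2a5 against that of Cyp2a12 (both log axes) in each endothelial (left) and Kupffer (right) library, controls as circles and knockouts as triangles, with a dashed line of equal values. All knockout points lie above the line, while control points fall on both sides of it.

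Cyp2a4 and Cyp2a22 were near 0 in isolated cells. Cyp2a4 was at 0 to 3.54 in endothelial controls and 0 to 22.3 in endothelial knockouts, so it passed the filter through its knockout libraries only. Since the filter kept it for its knockout values, no test of that difference is given. In Kupffer cells it reached 3.997 in controls and 11.2 in knockouts and did not pass the filter. Cyp2a22 reached at most 1.69 in any isolated-cell library and did not pass the filter in either cell type. No rhythm of Cyp2a5 or Cyp2a12 passed its test in isolated cells (limma, adjusted p = 0.14 to 0.92). Of all genes 6.13% did in endothelial controls, 13.2% in endothelial knockouts, 1.96% in Kupffer controls and 1.81% in Kupffer knockouts. For Cyp2a4, with a median of 0 in endothelial controls, a rhythm test could not decide and none is given. The control rhythms of Cyp2a5 came nearest, at 2.29 ± 0.77 log2 units in endothelial and 2.27 ± 0.86 in Kupffer cells, with fitted peaks at ZT 11.4 ± 1.3 h and 12.9 ± 1.5 h.

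The genes most like each member were taken from 11059 other symbols by the Pearson r of mean log2 CPM over the 16 group means of ad libitum liver, as a description over groups that share genotype and time. Cyp2a5 was most like Vdac1, which encodes a channel of the outer mitochondrial membrane (r = 0.964, and 0.836 in reverse-phase liver), Ndufv1, a subunit of respiratory complex I (0.927 and 0.822), and Atp5a1, a subunit of ATP synthase (0.924 and 0.845). Vdac1 and Atp5a1 also led for Cyp2a4 (0.962 and 0.928, and 0.807 and 0.820 in reverse-phase liver), followed by Ptgr2, a prostaglandin reductase (0.901 and 0.718). For Cyp2a22 the leading genes were Acot3, an acyl-CoA thioesterase (0.831 and 0.819), Idh2, the mitochondrial isocitrate dehydrogenase (0.830 and 0.752), and Slc16a5, a monocarboxylate transporter family member (0.826 and 0.797). Those of Cyp2a12 did not carry over: Dgat2, an enzyme of triglyceride synthesis, had r = 0.842 ad libitum and -0.214 under reverse-phase feeding, with Pdha1 at 0.755 and -0.291 and 4833418N02Rik at 0.755 and -0.400.

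Known and candidate regulators of the family changed in both directions between genotypes. Of 16 listed, 2 were higher and 5 lower in ad libitum knockouts, beside 13.7% and 13.5% of all genes, with a median of -0.08 log2 units beside -0.0040 over all genes. Under reverse-phase feeding 4 were higher and 6 lower, beside 12.7% and 14.2%, with a median of -0.11 beside -0.0060. Dbp, which encodes the clock output factor named above, rose in its fitted daily mean by 1.15 ± 0.25 log2 units ad libitum and 1.51 ± 0.18 under reverse-phase feeding (edgeR, adjusted p = 0.00034 and 9.5e-09). In mean CPM it differed less ad libitum, at 50.5 in controls and 60.6 in knockouts, with 42.5 and 81.8 under reverse-phase feeding. Its control curve peaked at ZT 9.3 ± 0.3 h ad libitum and at ZT 23.95 ± 0.3 h under reverse-phase feeding. The control curves of Cyp2a5 peaked at ZT 13 and ZT 4.4, and a link between the peaks of these genes was not tested. Nfil3, a repressor that competes for the same sites, rose by 1.21 ± 0.08 and 1.36 ± 0.10 log2 units under the schedules (edgeR, adjusted p = 5.8e-17 and 8.3e-16). Nr1i3, which encodes the xenobiotic receptor CAR, fell by 0.49 ± 0.10 and 0.31 ± 0.08 (edgeR, adjusted p = 8.3e-05 and 0.0017).

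Among 7 redox and heme partners of P450 enzymes 2 were lower ad libitum, Cyb5a, which encodes cytochrome b5, by -0.26 ± 0.05 log2 units (edgeR, adjusted p = 8.4e-05) and Pgrmc1, a heme-binding membrane protein, by -0.17 ± 0.04 (adjusted p = 0.0011). Under reverse-phase feeding 3 were lower and 1 higher. Of 9 neighbours in the Cyp2 cluster, 4 could be tested ad libitum and 2 were lower, Cyp2b10, a phenobarbital-inducible P450, by -1.13 ± 0.30 (edgeR, adjusted p = 0.0036) and Cyp2g1 by -0.52 ± 0.17 (adjusted p = 0.020). Both were also lower under reverse-phase feeding, 2 of 6 tested, and none was higher under either schedule. With so few tested these counts are not read against the shares of all genes called, 13.7% higher and 13.5% lower ad libitum and 12.7% and 14.2% under reverse-phase feeding.

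Genes with a sex bias in mouse liver did not move together in one direction. Of 10 female-biased genes tested ad libitum 1 was higher, Cyp17a1, an enzyme of androgen synthesis, by 2.999 ± 0.19 log2 units (edgeR, adjusted p = 3.8e-17), and 1 was lower. Under reverse-phase feeding 2 of 15 were higher and 2 lower, beside 12.7% and 14.2% of all genes, with a median of -0.19. Of 13 male-biased genes 3 were higher and 3 lower ad libitum, beside 13.7% and 13.5% of all genes. Elovl3, a fatty acid elongase, differed by 0.79 ± 0.19 (edgeR, adjusted p = 0.0012) in the fitted mean of logs, while its mean CPM was 376 in controls and 403 in knockouts. Cyp4a12a, a fatty acid hydroxylase, differed by -1.37 ± 0.17 (edgeR, adjusted p = 2.8e-08) and Mup20, a major urinary protein, by 0.43 ± 0.13 (adjusted p = 0.014). Under reverse-phase feeding 2 male-biased genes were higher and 2 lower, beside 12.7% and 14.2% of all genes. There Cyp4a12a was at -2.10 ± 0.26 (edgeR, adjusted p = 1.3e-08), while Elovl3 and Mup20 did not pass (0.53 ± 0.27 and 0.39 ± 0.24, adjusted p = 0.15 and 0.25). Of 7 growth hormone signalling genes none was called ad libitum, and 1, Stat5b, named after its value was seen, was higher under reverse-phase feeding by 0.22 ± 0.07 log2 units (edgeR, adjusted p = 0.012). Markers of some liver cell types moved with genotype as well. In ad libitum knockouts 7 of 10 endothelial, 6 of 7 stellate and 6 of 10 hepatocyte markers were higher, beside 13.7% of all genes. The median differences of these lists were 0.30, 0.54 and 0.17 log2 units. Of the hepatocyte markers 1 was lower, Alb, by -0.36 ± 0.05 log2 units (edgeR, adjusted p = 5.1e-07). None of 10 Kupffer markers was called, and 1 of 5 cholangiocyte markers was higher. The median summed share of hepatocyte markers was 15.6% in ad libitum controls and 14.2% in knockouts. Under reverse-phase feeding 4 of 10 endothelial, 6 of 7 stellate, 3 of 10 hepatocyte and 0 of 10 Kupffer markers were higher, beside 12.7% of all genes. There 1 of 5 cholangiocyte markers was higher as well. Alb was again lower, by -0.42 ± 0.06 log2 units (edgeR, adjusted p = 7.2e-07), the 1 hepatocyte marker called lower. The part of cell types in the CYP2A values was not tested.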

How the data were processed

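RNA-seq libraries of whole liver and of isolated endothelial and Kupffer cells were analysed from 4 tables deposited by the authors, each with 34600 transcript rows. RNA was extracted with Trizol and RNeasy columns and made into TruSeq libraries, per the labels' protocols. STAR, HOMER and the build mm9 are named in the submitters' processing notes, with no versions; for strand setting and multiply mapping reads, the sources used here give nothing. The 2 liver tables hold estimated counts as deposited, all multiples of 0.5, which were rounded to whole numbers. The 2 cell tables hold a signal that the authors had normalised: all columns of a table hold 1 set of sorted values, read here as quantile normalisation, so depth is unknown.

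Liver was tested with edgeR 4.0.16 (TMM, quasi-likelihood, low counts filtered) and cells with limma 3.58.1 (trend and robust) on log2(signal + 1), keeping rows of at least 10 in 3 libraries, in R 4.3.3; a fold on that scale understates changes of low genes. Each genotype had its own mean and 24-h cosine curve. Called means a Benjamini-Hochberg adjusted p under 0.05 over all rows tested. The tests were checked on simulated counts. DESeq2 1.42.0 was an alternative, as were other normalisations, filters and pseudocounts, time as a factor and leaving out libraries. SciPy 1.17.1 gave permutation tests. The daily mean difference in liver, known when the genes were proposed, has no test. The members, lists and tests were chosen with earlier results of these data known. Named genes are the members, the 3 other genes most like each, and list genes called ad libitum, up to 3 a list by size. The values of 1 listed gene that this rule names are not reported here.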

Additional observations from a re-analysis of the deposited data

Results flagged for a closer look

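Rhythms of Cyp2a5 and Cyp2a4 differed between groups in 4 tests, and these differences are listed here because the test of the difference itself passed. Each test took peak time and range together, while the values in log2 units are differences of the range alone. Between genotypes, the 24-h range of Cyp2a5 was lower in knockouts by 1.38 log2 units ad libitum (-1.38, edgeR, adjusted p = 0.0078) and the difference under reverse-phase feeding was -0.99 (edgeR, adjusted p = 0.0045). Of all genes 3.31% passed the test ad libitum and 1.48% under reverse-phase feeding. Both calls were lost in fits that left out a replicate number, and the ad libitum call also with time as a factor. Between schedules, the control range under reverse-phase feeding differed from that ad libitum by -1.22 log2 units for Cyp2a5 (edgeR, adjusted p = 2.0e-15) and by -1.46 for Cyp2a4 (edgeR, adjusted p = 0.00049). The fitted control peaks moved by -8.47 h and -10.0 h. This test between schedules was passed by 53.6% of all genes. No rhythm of Cyp2a4 was called in reverse-phase controls, and reads shared with Cyp2a5 can be counted for it. Groups held 3 libraries at each time, too few for a search for single deviating libraries.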

How the results depend on the processing

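Of 3124 alternative values for 78 results, 3025 were the same, 22 lost a call, 7 gained one, 70 moved and 0 reversed. The results counted include the ratio of Cyp2a5 to Cyp2a12 in isolated cells and the endothelial values of Cyp2a4, for which no test is given above. For tested values, same means that the call did not change, and direction was checked only where a value was called. Counts were the same within 1.5 times. Untested liver daily means were the same within the SD between libraries, and their direction was not checked. That of Cyp2a12 ad libitum ran from -0.05 to 0.02 when libraries or replicate numbers were left out. With Cyp2a4 and Cyp2a5 summed, the values given for Cyp2a4 became 1.12 (rhythm, ad libitum knockouts; edgeR, adjusted p = 0.00043), -1.40 (rhythm difference between genotypes ad libitum, 0.0094), 1.32 (rhythm, reverse-phase controls, 1.1e-05), -1.02 (rhythm difference between genotypes, reverse-phase, 0.0065), 1.84 (daily mean, reverse-phase) and -0.11 (daily mean, between schedules). With time as a factor the ad libitum rhythm difference of Cyp2a5 was -1.29 (adjusted p = 0.109) and the reverse-phase knockout rhythm of Cyp2a12 0.39 (0.25), which without a filter was 0.30 (0.058). Calls of reverse-phase rhythm differences were 205, 327 with DESeq2 and 132 with time as a factor; daily means differing between schedules were 28, and 66 with DESeq2. Without a filter, endothelial control rhythms fell from 768 to 486 and Kupffer knockout rhythms from 222 to 125. Leaving out libraries or replicate numbers gave, ad libitum, 2154 to 3491 daily means, 3593 to 5643 knockout rhythms and 157 to 450.0 rhythm differences, and under reverse-phase feeding 2411 to 3784 daily means, 3566 to 6514 control rhythms, 2345 to 5608 knockout rhythms and 41 to 234 rhythm differences. Between schedules it gave 4419 to 5445 knockout rhythm differences and 5 to 23 daily means. In endothelial cells it gave 1 to 7 daily means, 38 to 1164 control rhythms and 305 to 2441 knockout rhythms, and in Kupffer cells 0 to 7, 30.0 to 320.0 and 5 to 310.0. It gave 0.73 to 1.23 for the ad libitum knockout rhythm of Cyp2a4 and 0.25 to 0.36 for the reverse-phase knockout rhythm of Cyp2a12. For the rhythm differences of Cyp2a5 it gave -1.55 to -1.10 and -1.15 to -0.90. For the endothelial daily mean of Cyp2a4 it gave 1.45 to 2.61, a value that rests on a filter passed through knockout libraries only. The causes were not tested. With the replicate block 76 of 76 results were the same by these rules, for example 3381 daily means ad libitum against 3407. Libraries of one number correlated best with their own number in 7 of 24, 8 of 24, 5 of 12 and 5 of 12 pairs. The numbers therefore do not pair libraries within a table.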

Other observations

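Across the 24 reverse-phase knockout libraries, the gene most like Cyp2a22 among 10979 was Cyp2b9, a female-biased P450 of mouse liver (r = 0.89, and 0.85 in the reverse-phase controls). Cyp2c38, another P450, followed (0.86 and 0.80), and C6, a complement component, was the most opposite (-0.89 and -0.78). In ad libitum knockouts the same r values were 0.11, -0.29 and 0.15. For Cyp2a4 the most alike were Tcf24 (0.77, and 0.18 in controls) and Tmem98 (0.76 and 0.03), and the most opposite were Cadm4 (-0.86 and -0.60) and C4a, a complement component (-0.84 and -0.47). These genes were picked on the values given, libraries of a table share times and normalisation, and the r values are a description without a test.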
